A study of Mus musculus with 8 samples.

Results

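Collagen VI was represented by 3 genes, Col6a1, Col6a2 and Col6a3, and all probe sets annotated to them were taken. A probe set is a group of short oligonucleotides designed against 1 transcript. The MG-U74Av2 chip carried 4 such probe sets among the 12422 that are not controls, a bright and a dim one for Col6a1 and 1 each for Col6a2 and Col6a3. The chains were chosen by the signal of Col6a3, which differed between the mouse strains, so its strain difference is given as a description without a test. The question was whether its partner chains shared that difference.

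Lenses were compared among 4 groups: C57BL/6J α3Cx46 KO, C57BL/6J WT, 129SvJae α3Cx46 KO and 129SvJae WT, with 2 arrays each. C57BL/6J and 129SvJae are inbred mouse strains, and KO mice carry a targeted disruption of Gja3, the gene of the gap junction subunit α3 connexin 46. All mice were 10 days old, both sexes were included, and each sample was RNA from 20 to 30 pooled lenses. The labels describe the arrays of a group as separate samples without stating that their pools held different mice. The p-values therefore reflect variation between samples that may be only technical.

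Collagen VI is an extracellular matrix protein in which an α1, an α2 and an α3 chain wind around each other into a triple helix. These units pair up inside the cell, are secreted, and join end to end into beaded microfilaments that lie next to basement membranes and link them to the surrounding matrix and to cell surface receptors. The lens is enclosed by a thick basement membrane, the capsule, which epithelial and fiber cells lay down. The α3 chain is the longest of the 3, and in other tissues a fragment cut from its end is known as endotrophin. The further genes of the family, Col6a4, Col6a5 and Col6a6, whose chains can take the place of α3, had no probe set in the annotation used.

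Col6a1 and Col6a2 lie side by side on mouse chromosome 10, and Col6a3 lies on chromosome 1. The start regions of the 3 genes are shown because the chains form 1 protein while their genes lie on different chromosomes. Each window runs from 250 bases before to 50 bases after the annotated start (RefSeq, build GRCm38.p6, minus strand, 5′ to 3′), and all 3 genes were matched by symbol. Capitals mark the GC box GGGCGG (here read as CCGCCC, from the other strand), which was searched on both strands beside TATAAA and CCAAT.
Col6a3, chr1:90843922-90844221: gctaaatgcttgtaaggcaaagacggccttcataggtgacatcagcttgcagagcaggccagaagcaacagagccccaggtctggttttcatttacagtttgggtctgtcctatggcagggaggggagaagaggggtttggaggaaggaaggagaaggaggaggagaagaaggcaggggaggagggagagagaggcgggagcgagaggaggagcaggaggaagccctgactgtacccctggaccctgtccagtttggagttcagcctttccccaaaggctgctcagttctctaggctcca
Col6a1, chr10:76725995-76726294: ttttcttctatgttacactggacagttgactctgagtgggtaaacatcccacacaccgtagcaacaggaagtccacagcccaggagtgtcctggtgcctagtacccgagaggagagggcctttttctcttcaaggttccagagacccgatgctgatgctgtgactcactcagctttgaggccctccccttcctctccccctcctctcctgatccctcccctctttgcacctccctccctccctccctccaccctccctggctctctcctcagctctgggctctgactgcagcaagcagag
Col6a2, chr10:76623355-76623654: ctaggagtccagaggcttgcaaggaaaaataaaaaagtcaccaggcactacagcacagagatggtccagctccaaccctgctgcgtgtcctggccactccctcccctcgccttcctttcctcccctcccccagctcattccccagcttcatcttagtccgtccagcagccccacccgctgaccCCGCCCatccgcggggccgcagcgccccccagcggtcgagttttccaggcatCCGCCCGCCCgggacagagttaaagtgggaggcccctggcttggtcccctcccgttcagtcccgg
The Col6a2 window held 3 GC boxes, of which 2 overlapped, while the windows of Col6a3 and Col6a1 held none of the 3 motifs. A GC box was present in 35.7% of 32851 such windows of annotated genes, TATAAA in 13.6% and CCAAT in 37.4%. The dinucleotide CpG occurred 3 times in the Col6a3 window, 3 times in the Col6a1 window and 16 times in this Col6a2 window, against a median of 7 over all windows. A further annotated Col6a2 start upstream of the one shown had 6 CpG and 1 GC box.

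Signals are given in the linear units of the authors' software, in which each array was scaled to a mean of 250 and values under 50 are treated as close to background. The arrays had median signals of 85.2 to 114.6, with 7637 to 8602 probe sets above 50. Both measures were higher on the replicate 1 arrays, which shared a scan session, than on the replicate 2 arrays. Medians were 102 to 114.6 against 85.2 to 95.1, and probe sets above 50 were 8338 to 8602 against 7637 to 8070. Gja3, the disrupted gene, was lower in KO lenses (averaged KO over WT log2 ratio -2.23, SE 0.29, adjusted p = 0.0160, limma). C57BL/6J WT replicate 1 carried a fluidics error in its run record, and 129SvJae WT replicate 2 was scanned in a session of its own. Mip, the water channel aquaporin 0 that marks lens fiber cells, was at 13873.5 to 16493.7 in C57BL/6J lenses and 11002.3 to 14703.1 in 129SvJae lenses.

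Col6a3, for the α3 chain, had higher signals in C57BL/6J lenses than in 129SvJae lenses, in both genotypes. Its signals were 2087.6 and 2552.1 in C57BL/6J KO lenses, 2165.7 and 2829.7 in C57BL/6J WT lenses, 547.8 and 523.6 in 129SvJae KO lenses, and 371.9 and 457.5 in 129SvJae WT. Every C57BL/6J array was above every 129SvJae array, and the lowest C57BL/6J value was far from the highest 129SvJae value. The 4 C57BL/6J arrays averaged 2409 ± 346 and the 4 129SvJae arrays 475 ± 78.7 (SD, n = 4 each). As a description, the log2 ratio of C57BL/6J to 129SvJae was 2.35 (SE 0.17, 95% interval 1.98 to 2.72), a fold of 5.09. It was 2.11 (SE 0.24) between KO lenses and 2.59 (SE 0.24) between WT lenses. These sizes rest on the only Col6a3 probe set, of a gene chosen for this difference. Real-time PCR in the paper gave smaller Col6a3 ratios in both genotypes, in the same direction. By size of the averaged difference, Col6a3 ranked 17th of the 10078 probe sets tested. Replicates lay close together, with a residual standard deviation of 0.202 on the log2 scale against a median of 0.540 over all probe sets.

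Col6a1, for the α1 chain, differed between the strains by less than its spread. Its signals were 143.6 and 138.5 in C57BL/6J KO lenses, 445.8 and 145.2 in C57BL/6J WT lenses, 334.3 and 232.8 in 129SvJae KO lenses, and 175.1 and 211.2 in 129SvJae WT. The strains overlapped, since 3 C57BL/6J arrays were below all 129SvJae arrays and the remaining one, C57BL/6J WT replicate 1, was above them. The C57BL/6J arrays averaged 218 ± 152 and the 129SvJae arrays 238 ± 68.3 (SD, n = 4 each). The log2 ratio of C57BL/6J to 129SvJae averaged over genotypes was -0.29 (SE 0.36, 95% interval -1.06 to 0.48, adjusted p = 0.950, limma with Benjamini-Hochberg adjustment over all 10078 probe sets). The upper bound of that averaged interval is a fold of 1.40, against a fold of 5.09 estimated by array for Col6a3. Between WT lenses alone the upper bound for Col6a1 was 2.82, which is above the paper's real-time PCR ratio for Col6a3. Without C57BL/6J WT replicate 1 the ratio was -0.69, and without C57BL/6J WT replicate 2 it was 0.11.

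The Col6a2 probe set, for the α2 chain, did not differ between the strains beyond its spread either. Its signals were 57.1 and 25.4 in C57BL/6J KO lenses, 193.4 and 106 in C57BL/6J WT lenses, 116.8 and 70.3 in 129SvJae KO lenses, and 109.8 and 148.4 in 129SvJae WT. C57BL/6J KO replicate 2 was the only Col6a2 value below 50, and C57BL/6J WT replicate 1 was the highest. The C57BL/6J arrays averaged 95.5 ± 73.2 and the 129SvJae arrays 111 ± 32.1 (SD, n = 4 each), and the strains overlapped. The averaged log2 ratio of C57BL/6J to 129SvJae was -0.54 (SE 0.48, 95% interval -1.58 to 0.49, adjusted p = 0.927, limma), with an upper bound of 1.41 on the fold scale. Of all 10078 probe sets, 0.367% were called between the strains in this averaged comparison, at an adjusted p under 0.05, and neither partner chain was among them or had an unadjusted p under 0.05. Non-overlapping signals between the 4 arrays of each strain occurred in 5.57% of probe sets. The methods' t-test, whether run on log2 or on linear values, called neither chain after adjustment.

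**Figure D1:**
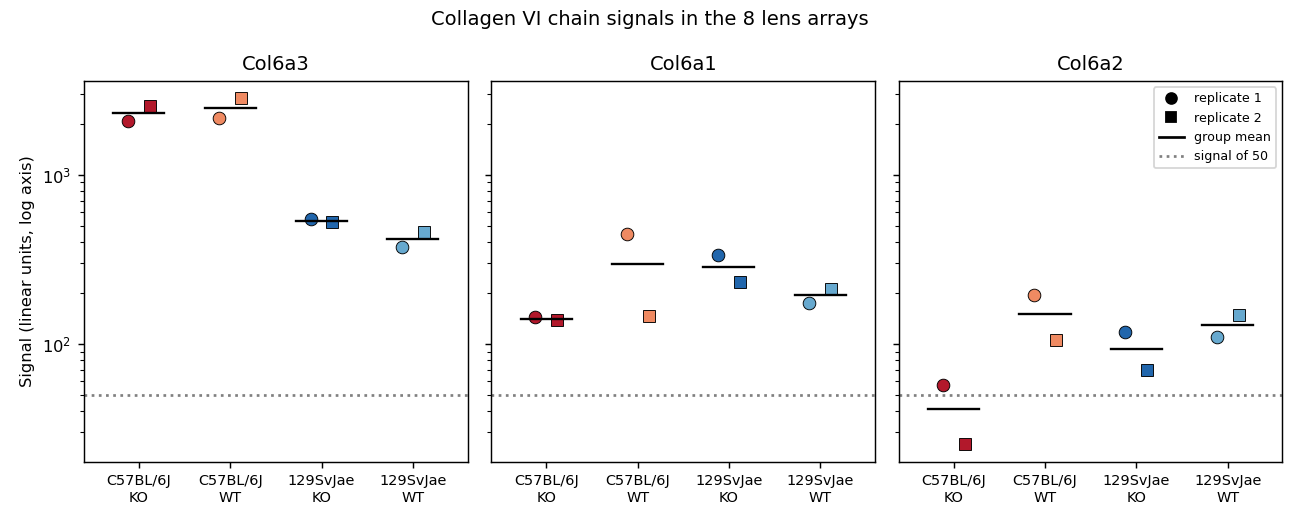
Signal (log axis, linear units) of the Col6a3, Col6a1 and Col6a2 probe sets in each of the 8 arrays, by strain and genotype. Circles are replicate 1, squares replicate 2, bars group means and the dotted line a signal of 50, and heights are to be compared within a panel and not between panels. The 4 C57BL/6J arrays lie above the 4 129SvJae arrays for Col6a3, while the strains overlap for Col6a1 and Col6a2.

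The partners' strain estimates were negative between KO lenses and positive between WT lenses, and none passed the test. Between KO lenses, Col6a1 was at 141 ± 3.61 in C57BL/6J and 284 ± 71.8 in 129SvJae (SD, n = 2 each), giving -0.98 on the log2 scale (SE 0.51, adjusted p = 0.9997, limma). Between WT lenses it was at 295.5 ± 213 in C57BL/6J and 193 ± 25.5 in 129SvJae, giving 0.40 (SE 0.51, adjusted p = 0.959). Without C57BL/6J WT replicate 1 the ratio between WT lenses was -0.41. Col6a2 had the same arrangement. Between KO lenses it was at 41.3 ± 22.4 in C57BL/6J and 93.6 ± 32.9 in 129SvJae, giving -1.25 (SE 0.68, adjusted p = 0.9997), and between WT lenses at 149.7 ± 61.8 in C57BL/6J and 129 ± 27.3 in 129SvJae, giving 0.17 (SE 0.68, adjusted p = 0.983). None of these 4 differences had an unadjusted p under 0.05. Among all probe sets 0.0893% were called between KO lenses and 0.0695% between WT lenses.

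Col6a3 did not differ detectably between KO and WT lenses in either strain. Averaged over strains, its log2 ratio of KO to WT was 0.14 (SE 0.17, 95% interval -0.23 to 0.51, adjusted p = 0.998, limma, 4 arrays against 4). It was -0.10 (SE 0.24, adjusted p = 0.9999) in C57BL/6J lenses and 0.38 (SE 0.24, adjusted p = 0.9998) in 129SvJae lenses. In 129SvJae both KO arrays were above both WT arrays, an order that 12.2% of all probe sets showed in that strain. The difference between these KO effects was -0.48 (SE 0.34, 95% interval -1.22 to 0.26, adjusted p = 0.9998).

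Col6a2 had the lowest signals in KO lenses, mainly in C57BL/6J. KO lenses averaged 67.4 ± 37.9 and WT lenses 139 ± 40.8 (SD, n = 4 each), with overlap between them. The averaged log2 ratio of KO to WT was -1.20 (SE 0.48, 95% interval -2.24 to -0.17), with an unadjusted p of 0.0258 and an adjusted p of 0.998 from limma. In C57BL/6J both KO arrays were below both WT arrays, as were those of 14% of all probe sets, and the log2 ratio was -1.91 (SE 0.68, unadjusted p = 0.0142, adjusted p = 0.9999, limma). In 129SvJae it was -0.49 (SE 0.68, adjusted p = 0.9998), and the signals overlapped. Because C57BL/6J KO replicate 2 was under the background level of 50, the size of the C57BL/6J ratio rests in part on a value with little signal. Of all probe sets, 0.0198% were called between KO and WT lenses averaged over strains, 0.00992% in C57BL/6J and 0% in 129SvJae, and no collagen VI chain was among them.

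Col6a1 arrays stood in opposite orders in the strains, without a difference that passed the test. In C57BL/6J both KO arrays were below both WT arrays, at -0.85 on the log2 scale (SE 0.51, adjusted p = 0.9999), and in 129SvJae both KO arrays were above both WT arrays, at 0.54 (SE 0.51, adjusted p = 0.9998, limma). In C57BL/6J the nearest KO and WT values were 143.6 and 145.2, and without WT replicate 1 the ratio there was -0.04. That pair of orders was found in 1.57% of all probe sets. The difference between the KO effects was -1.39 (SE 0.72, unadjusted p = 0.0740, adjusted p = 0.9998), and it became -0.58 without C57BL/6J WT replicate 1. The difference for Col6a2 was -1.42 (SE 0.96, adjusted p = 0.9998). No probe set of the array was called for this interaction, although 213 had an unadjusted p under 0.05.

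**Figure D2:**
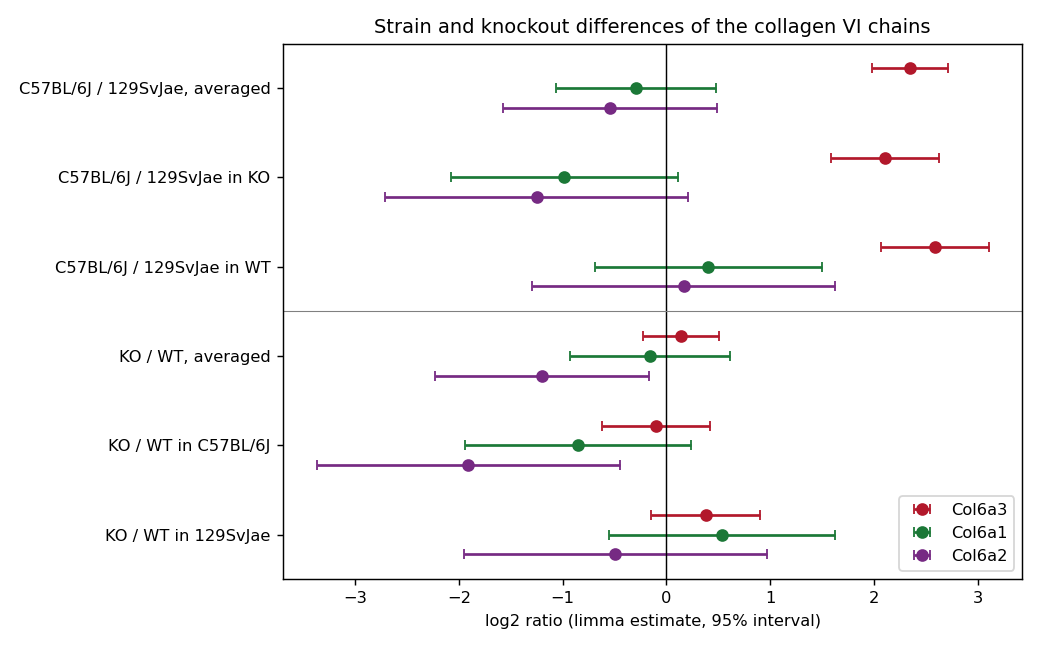
Log2 ratios of the 3 collagen VI chains with their 95% intervals from limma (x axis), for C57BL/6J over 129SvJae (upper rows) and KO over WT (lower rows), with 2 arrays per group. Col6a3 was chosen for its strain difference, so its strain intervals are a description and no test against 0. The strain intervals of Col6a1 and Col6a2 all span 0. The Col6a2 intervals for KO over WT, averaged and in C57BL/6J, lie below 0 before adjustment.

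The second Col6a1 probe set gave signals close to background. It is of the family type, whose oligonucleotides can match several related transcripts. Its signals were 13.1 and 21.4 in C57BL/6J KO lenses, 21.6 and 12.3 in C57BL/6J WT lenses, 11.2 and 5.4 in 129SvJae KO lenses, and 28.9 and 14.9 in 129SvJae WT. All 8 were under 50, so it was not tested, and the remaining 3 probe sets of the chains were. Its log2 ratio of C57BL/6J to 129SvJae without a level filter was 0.38, of opposite sign to that of the brighter probe set.

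Across the 8 arrays the partner chains resembled each other more than either resembled Col6a3. Log2 signals of Col6a1 and Col6a2 correlated at r = 0.67, which was at the 96th percentile of all tested probe sets ranked by their correlation with Col6a1. In each of the 4 groups the replicate with the higher Col6a1 signal also had the higher Col6a2 signal. The correlation with Col6a3 was -0.24 for Col6a1 and -0.34 for Col6a2. These values are descriptions over arrays that share strain, genotype and scan session, and the first was 0.52 over 7 arrays when C57BL/6J WT replicate 1, the array with the fluidics error and the highest signal of both chains, was left out. Replicates of Col6a1 differed by 3.07-fold in C57BL/6J WT lenses and by 1.04-fold to 1.44-fold in the other groups. Replicates of Col6a2 differed by 1.35-fold to 2.25-fold and those of Col6a3 by 1.05-fold to 1.31-fold.

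The scan session moved with the replicate number, since replicate 1 of every group was scanned in 1 session. Within that session the log2 ratio of C57BL/6J to 129SvJae for Col6a3 was 1.93 between KO lenses and 2.54 between WT lenses, and between the KO lenses of the second session it was 2.29. For Col6a1 these values were -1.22 and 1.35 in the first session and -0.75 between KO lenses in the second. For Col6a2 they were -1.03 and 0.82 in the first session and -1.47 between KO lenses in the second. The strains could be compared within these sessions only, WT lenses in the first alone, since the third session held 129SvJae WT replicate 2 and no other array. Each of these values sets 1 array against 1, and Col6a3 was higher in C57BL/6J in all of them. How many of all probe sets kept their sign between KO lenses across the sessions is not given. The signs of the partners are therefore descriptions.

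The probe sets most like Col6a3 over the 8 arrays were those of Cryge (r = 0.99), a γ-crystallin, Gatad2a (r = 0.99), a subunit of a chromatin remodeling complex, Gas5 (r = 0.98), a noncoding RNA that hosts small nucleolar RNAs, Trappc5 (r = 0.97), a subunit of a vesicle tethering complex, and Emc10 (r = 0.97), a subunit of the endoplasmic reticulum membrane complex. Because the arrays fall into the strains, any probe set with a large strain difference scores high on this measure, and no collagen or matrix gene was among these 5. Their log2 ratios of C57BL/6J to 129SvJae were 3.43 for Cryge, 1.14 for Gatad2a, 4.19 for Gas5, 2.07 for Trappc5 and 0.65 for Emc10. The Cryge value is uncertain, because γ-crystallin genes are nearly identical and its other probe sets gave -0.37 to 0.04. The Gatad2a value, from a probe set with a mean signal of 362, is uncertain too. Its brightest probe set, at a mean of 2033, gave 0.16 (SE 0.17, adjusted p = 0.938), a further one gave 1.43 (adjusted p = 0.0782), and a dim one, at 35.1, gave -0.59.

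No tested gene beside the collagen VI loci was called between the strains, a comparison in which 0.367% of all probe sets were called. Of the 5 nearest annotated genes on each side of Col6a3, 3 were tested and none was called. The log2 ratio of C57BL/6J to 129SvJae was 0.03 (SE 0.20) for Cops8, a COP9 signalosome subunit, -0.16 (SE 0.85) for Rab17, a small GTPase of membrane traffic, and -1.09 (SE 0.42, adjusted p = 0.557, limma) for Lrrfip1. Beside Col6a1 and Col6a2, Lss, the lanosterol synthase of cholesterol synthesis, was the 1 gene tested, at 0.58 (SE 0.45, adjusted p = 0.899).

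Collagen VI acts with other collagens, with the enzymes and chaperones that make and fold collagen, with matrix proteins that bind it and with cell surface receptors. Lists of these held 139 genes, of which 106 had a probe set and 93 were tested. None was called in any of the strain, KO or interaction comparisons by limma, where 0.367% of all probe sets were called in the averaged strain comparison. At an unadjusted p under 0.05 there were 9 in that comparison, 9.68% of the 93, against 6.98% of all probe sets tested. The methods' t-test also called none after adjustment. The median log2 ratio of C57BL/6J to 129SvJae over the 93 was 0.11, against 0.01 over all probe sets. Some members of these lists and of the cell markers below passed the level filter through C57BL/6J groups only, and others through 129SvJae groups only. The filter favored the sign of their ratios, so the signs and medians of all lists are descriptions.

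Among collagens that build fibrils, 5 of the 6 tested had a positive log2 ratio of C57BL/6J to 129SvJae (median 0.36), and none was called. Col1a1, Col5a2 and Col11a1 had group means above 50 in C57BL/6J only. Passing the level filter therefore favored a positive ratio for them, and the signs and the median are descriptions. Col11a1, of cartilage fibrils and the vitreous, had 80.7 and 53.5 in C57BL/6J KO lenses, 124.7 and 57.7 in C57BL/6J WT lenses, 14.7 and 6.1 in 129SvJae KO lenses, and 9.2 and 8.2 in 129SvJae WT. All of its 129SvJae signals were under 50 and all C57BL/6J signals above it, so only a bound can be given. With signals under 50 taken as 50, the estimated fold of C57BL/6J over 129SvJae was 1.49, a lower bound on the estimate only. It leaves out the spread of the C57BL/6J signals, which reached down to 53.5. The difference was not called (adjusted p = 0.174, limma on the measured signals). The median of the list stayed at 0.36 with this bound. Col1a2, of the main fibril collagen of skin and bone, had a log2 ratio of 0.24 (SE 0.22). Col5a2, at 1.01 (SE 0.77), was above 50 on 2 of 8 arrays only.

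The basement membrane collagens, which include those of the capsule, gave 5 positive and 1 negative log2 ratios among 6 tested (median 0.14). Col4a2, a chain of the collagen IV network of the capsule, was at 9944.5 to 11894.2 in C57BL/6J lenses and 8399.9 to 10022.7 in 129SvJae lenses, and its log2 ratio of C57BL/6J to 129SvJae was 0.23 (SE 0.13, adjusted p = 0.830). Col4a4 was at 0.46 (SE 0.55) and Col15a1 at -0.29 (SE 0.40). Col18a1 was counted as positive by its brightest probe set, at 0.09, while its other tested probe sets gave 0.12, -1.2 and -1.01. Of 10 other collagens tested, 4 ratios were positive and 6 negative (median -0.10), with Col9a2 at 0.46 (SE 0.30), Col12a1 at 0.37 (SE 0.56) and Col19a1 at -0.49 (SE 0.77). In the comparison of KO with WT averaged over strains, 9 of these 10 ratios were negative and 1 was positive, and none passed the test. Their median was -0.58, against -0.02 over all probe sets. No other list of related genes was as one-sided, and of 12 receptor and linkage ratios 9 were positive and 3 negative. Some of the 10 collagens lay near background, such as Col19a1, above 50 on 4 of 8 arrays.

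**Figure D3:**
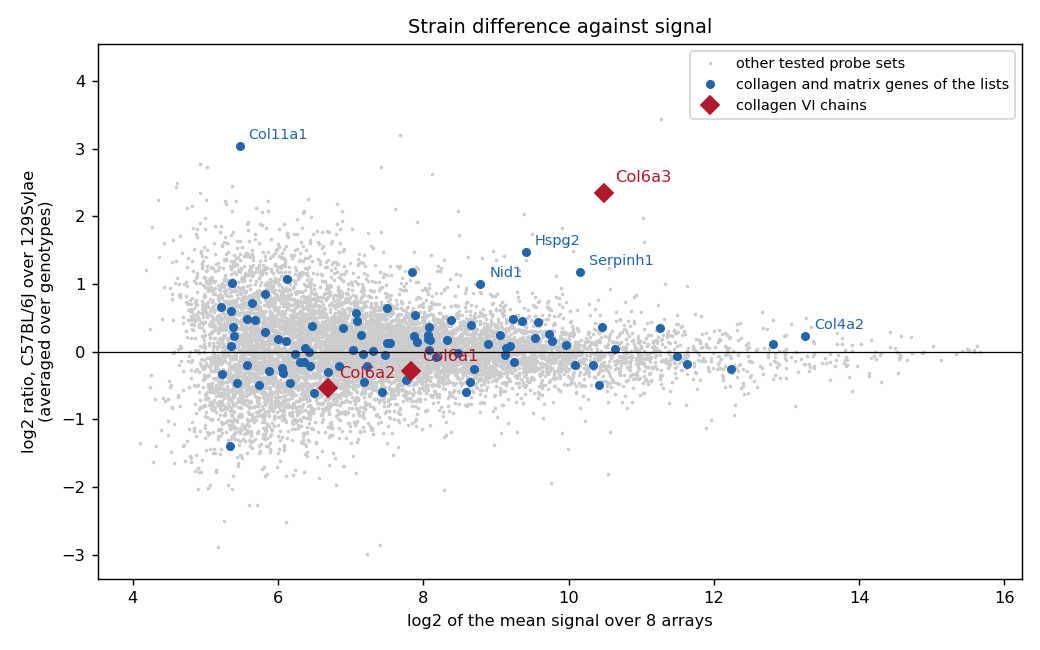
Log2 ratio of C57BL/6J over 129SvJae averaged over genotypes (y axis) against the log2 of the mean signal over 8 arrays (x axis). Each point is 1 tested probe set, in gray for all, in blue for the collagen and matrix genes of the lists and in red for the collagen VI chains, and the spread widens at low signal. Col6a3 stands at 2.35 while Col6a1 (-0.29) and Col6a2 (-0.54) lie among the other probe sets of their signal. The 129SvJae signals of Col11a1 were all under 50, so its height rests on background.

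Proteins that bind collagen VI in the matrix had 10 positive and 6 negative log2 ratios among 16 tested (median 0.17). Nid1, which codes for nidogen 1, a linker of laminin and collagen IV in basement membranes, was at 467.7 and 638.3 in C57BL/6J KO lenses, 486.8 and 770.6 in C57BL/6J WT lenses, 259.1 and 331 in 129SvJae KO lenses, and 291.7 and 279.5 in 129SvJae WT. The strains did not overlap, as in 5.57% of all probe sets, and the log2 ratio was 1.0 (SE 0.23, unadjusted p = 0.000879, adjusted p = 0.136, limma, 4 arrays against 4). Hspg2, for the capsule proteoglycan perlecan, had 657.2 and 1423.5 in C57BL/6J KO lenses, 628.8 and 1044.3 in C57BL/6J WT lenses, 400.9 and 641.7 in 129SvJae KO lenses, and 67.6 and 595.6 in 129SvJae WT. Its log2 ratio was 1.47 (SE 0.51, adjusted p = 0.449), and 0.69 without 129SvJae WT replicate 1, its lowest array. Mfap2, for a microfibril protein, was at 0.37 (SE 0.17, adjusted p = 0.714).

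The synthesis and folding genes had 11 positive and 7 negative log2 ratios among 18 tested (median 0.08). Serpinh1, for the collagen chaperone HSP47, was at 1472.2 and 1617.5 in C57BL/6J KO lenses, 1262.3 and 1589.7 in C57BL/6J WT lenses, 966.9 and 1046.5 in 129SvJae KO lenses, and 175 and 1038 in 129SvJae WT. The strains did not overlap, as in 5.57% of all probe sets, and the log2 ratio was 1.18 (SE 0.39, adjusted p = 0.417), or 0.53 without 129SvJae WT replicate 1. P4ha2, a subunit of the prolyl hydroxylase that stabilizes the triple helix, was at 0.43 (SE 0.19, adjusted p = 0.698) and Pdia3, a disulfide isomerase, at 0.40 (SE 0.24). Hspg2 and Serpinh1 were called, as higher in C57BL/6J, when scan session was a block (log2 ratio 2.05, adjusted p = 0.00145, for Hspg2 and 1.77, adjusted p = 0.00110, for Serpinh1) and when 129SvJae WT replicate 2 was left out (2.26, adjusted p = 0.00667, for Hspg2 and 1.82, adjusted p = 0.000602, for Serpinh1). In both settings 129SvJae WT rests on replicate 1.

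Genes that mature and degrade collagens had 9 positive and 6 negative log2 ratios among 15 tested (median 0.17). Timp3, a tissue inhibitor of metalloproteinases, was at -0.50 (SE 0.19, adjusted p = 0.528), Pcolce, an enhancer of procollagen cleavage, at 0.45 (SE 0.19, adjusted p = 0.647) and Loxl1, a cross-linking enzyme, at 0.64 (SE 0.40). Receptors and their linkage proteins had 8 positive and 4 negative ratios among 12 tested (median 0.26). Sdc4, a heparan sulfate receptor, was at 251.9 to 373.6 in C57BL/6J lenses and 81.3 to 239.5 in 129SvJae lenses, without overlap (log2 ratio 1.18, SE 0.37, adjusted p = 0.361). Such separation of the strains was present in 5.57% of all probe sets. Ddr1, a collagen receptor kinase, was at 0.49 (SE 0.26). Itgb3, an integrin subunit, was under 50 on all C57BL/6J arrays (7.6 to 33.5) and above it on 2 of the 129SvJae arrays (24.8 to 107.5), so no fold is given (adjusted p = 0.848). Laminins and other capsule glycoproteins had 7 positive and 5 negative ratios among 12 tested (median 0.12), with Sparc, a collagen-binding glycoprotein, at 0.34 (SE 0.20).

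**Figure D4:**
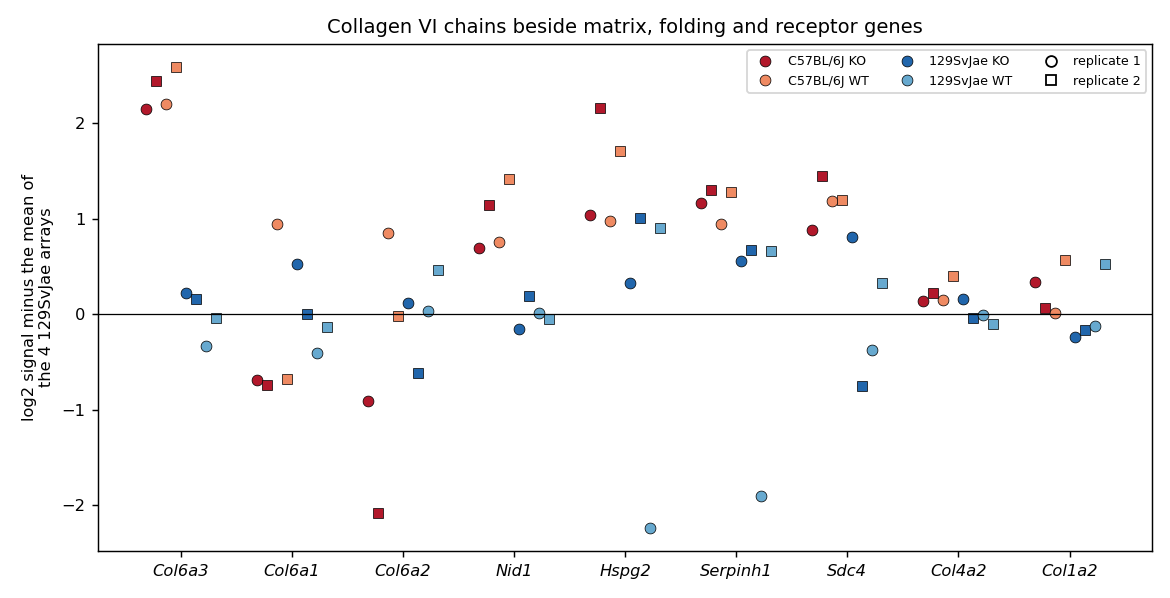
Log2 signal of each array minus the mean of the 4 129SvJae arrays (y axis), for the collagen VI chains and 6 related genes (x axis). Colors mark the groups, circles replicate 1 and squares replicate 2. The C57BL/6J arrays are set apart for Col6a3 and lie above all 129SvJae arrays for Nid1, Serpinh1 and Sdc4, while 129SvJae WT replicate 1 is the lowest array for Hspg2 and Serpinh1. Of all probe sets, 5.57% had strains without overlap, in either direction.

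Lens preparations can carry cells from outside, and collagen VI is a product of fibroblasts in many tissues, so markers of other cells were set beside Col6a3. In bulk samples such as these, fewer cells of a type and less RNA per cell cannot be told apart. Of 13 fibroblast and corneal stroma markers, 9 were tested and none was called between the strains (median log2 ratio 0.25), where 0.367% of all probe sets were called. Their summed signal was 8530 to 10100 in C57BL/6J lenses and 7397 to 9410 in 129SvJae lenses, with overlap. Of the 13 markers, 4 were above 50 on all 8 arrays and the other 9 on 0 to 5 of them. Col3a1 was under 50 on all 8 arrays, Col1a1 was above 50 on 3 of 8, and Dcn, for decorin, was at 41 to 132.5 in C57BL/6J lenses and 9.3 to 120.2 in 129SvJae lenses. The 4 markers above 50 throughout were Col1a2, at 484.6 to 711.3 in C57BL/6J lenses and 407.5 to 689.2 in 129SvJae lenses, Pdgfrb, a growth factor receptor, at 140.7 to 181.6 in C57BL/6J lenses and 60.8 to 167.7 in 129SvJae lenses, S100a4, a calcium-binding protein, at 2946.4 to 3292.7 in C57BL/6J lenses and 3102.1 to 4362.8 in 129SvJae lenses, and Ogn, for osteoglycin, at 4341.4 to 6222.7 in C57BL/6J lenses and 3333.9 to 4614.3 in 129SvJae lenses. The vessel markers summed to 767 to 1178 in C57BL/6J lenses and 626 to 996 in 129SvJae lenses, with 9 of 13 tested, and those of smooth muscle and pericytes to 1428 to 2003 in C57BL/6J lenses and 1438 to 2525 in 129SvJae lenses, with 8 of 9 tested. None of the listed markers of macrophages, retina, pigment and ciliary epithelium, corneal epithelium or red blood cells was called between the strains. The part of these cells in the Col6a3 difference was not tested.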

How the data were processed

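Total RNA of 8 lens pools was hybridized by the authors to MG-U74Av2 arrays, and 1 intensity per probe set was deposited, a MAS5 signal (Affymetrix Microarray Suite) on a linear scale, scaled to a mean of 250. Groups and replicate numbers came from the labels.

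Signals were brought to a mean of 250 on every array, trimmed by 2% at each end, which changed them little. The single value that was not above 0 became 1 before logarithms were taken. The chip held 12488 probe sets including 66 controls, and 10078 whose mean exceeded 50 in 1 or more groups entered limma 3.58.1 (R 4.3.3): 4 group means, a variance trend, all 8 arrays, Benjamini-Hochberg adjustment over all, called under 0.05. Symbols came from the platform annotation (10833 probe sets with 1 symbol, 396 with several, 1193 with none), and 10817 of the symbols were updated by gene ID to a GRCm38.p6 gene table. No build is named for the chip, so coordinates are given for start regions only.

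The chains, the gene lists and the alternatives were chosen with earlier results of these data known. The text names all chain probe sets, each related gene called in a comparison or else up to 3 per list with the smallest unadjusted p between strains, the 5 probe sets most correlated with Col6a3, and measured neighbours. Related genes and neighbours were given by their brightest probe set, and the 5 correlated ones by the probe set itself. Deviations from the group means correlated between same-numbered arrays in all 6 group pairs (r 0.13 to 0.206) and shared scan sessions, apart from 129SvJae WT replicate 2, so the number was taken as a pairing and tried as a block. Tested on data simulated for the averaged strain comparison with 10078 probe sets, 42 of 100 true 4-fold changes and 15 of 100 true 2-fold changes were recovered, and 3 of 60 calls were false. The simulated errors were independent between arrays, so the deviations shared by same-numbered arrays were left out. The number of arrays and signal over background limit the precision. Other settings were quantile normalization, median centering, other level filters, an offset, no variance trend, scan session as a block, the methods' t-test and leaving out each array.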

Additional observations from a re-analysis of the deposited data

Results flagged for a closer look

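Col6a1 was the 1 chain whose KO and WT arrays stood in opposite orders in the strains without overlap. In C57BL/6J both KO arrays (143.6 and 138.5) were below both WT arrays (445.8 and 145.2), and in 129SvJae both KO arrays (334.3 and 232.8) were above both WT arrays (175.1 and 211.2). The difference between the KO effects was -1.388 on the log2 scale, and it did not pass the test (unadjusted p = 0.0740, adjusted p = 0.9998, limma interaction). The same pair of orders, lower in C57BL/6J KO and higher in 129SvJae KO, was present in 158 of 10078 probe sets. The reverse pair, which would have been flagged as well, is not in that count.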

How the results depend on the processing

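No chain crossed the threshold of its test under any alternative, and Col6a3 stayed higher in C57BL/6J under all, at log2 ratios of 2.25 to 2.52 averaged over genotypes. With the replicate block, 58 probe sets were called between the strains (37 without it) and 16 between WT lenses (7 without it), and it changed no call of a chain or of a related gene. With scan session as a block, 86 and 38 were called, and the log2 ratio of KO to WT turned to 0.0931 for Col6a1 averaged over strains and to 0.18 for Col6a2 in 129SvJae. Related genes' probe sets called with that block were 2 between the strains, 2 between WT lenses, 1 between KO and WT averaged over strains and 2 in 129SvJae, and without 129SvJae WT replicate 2 they were 2, 2, 1 and 1. By the methods' t-test on linear signals the averaged ratio of KO to WT for Col6a3 was -0.0284. That t-test called 20 probe sets between the strains on log2 signals and 21 on linear signals, median centering called 19, and the fit without a variance trend called 1. Median centering moved the median of all probe sets for KO over WT in 129SvJae by 0.143. The dim Col6a1 probe set, tested without a level filter, gave the same sign as the bright one for the averaged KO over WT (-0.69) and signs opposite to it otherwise, at 0.38 for the averaged strain ratio, -0.35 in WT, 1.11 in KO, 0.0388 for KO over WT in C57BL/6J, -1.42 in 129SvJae and 1.46 for the interaction.

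Leaving out 1 array at a time gave log2 ratios of C57BL/6J to 129SvJae of -0.69 to 0.11 for Col6a1 averaged over genotypes, -0.41 to 1.21 for Col6a1 between WT lenses and -0.27 to 0.60 for Col6a2 between WT lenses, with 2.39 to 2.78 for Col6a3 between WT lenses. It gave ratios of KO to WT of -0.56 to 0.25 for Col6a1 averaged over strains and -0.294 to 0.0919 for Col6a3 in C57BL/6J. Without 1 of the KO arrays, 18 to 24 probe sets were called between the strains, 2 to 6 between KO lenses (9 with all arrays) and 0 between KO and WT averaged over strains (2 with all arrays). Between WT lenses 31 were called without 129SvJae WT replicate 2, and for C57BL/6J WT 16 were called when replicate 2 was left out and 4 when replicate 1 was. The interaction had 1 call without 129SvJae WT replicate 2, and KO over WT in 129SvJae had 3 without 129SvJae WT replicate 1 and 2 without replicate 2 (0 with all arrays for both). An alternative chosen after seeing the data left out C57BL/6J WT replicate 1 and 129SvJae WT replicate 2 together. It gave -0.27 for Col6a1 and -0.05 for Col6a2 between WT lenses, 0.31 for Col6a1 in KO over WT averaged over strains, 2.93 for Col6a3 between WT lenses and 57 probe sets called between the strains. The causes were not tested. Col6a2 signals near 50 and groups of 2 arrays limit what could be detected.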

Other observations

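When neighbors of Col6a1 and Col6a2 were limited to the 5 nearest protein-coding genes on each side, a rule added after the values were seen, 6 were tested and none was called between the strains (0.367% of all probe sets were). Among them were Col18a1, for a basement membrane collagen of the eye, with a log2 ratio of C57BL/6J to 129SvJae of 0.09, and Pofut2, a protein fucosyltransferase gene, at 0.997. The Col18a1 value is uncertain, because its other tested probe sets gave 0.12, -1.2 and -1.01.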
